A study of Homo sapiens with 6 samples.

Results

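The genes of 9 prostate antigens were examined in RNAseq data of human prostate cancer cells. They are FOLH1, STEAP1, STEAP2, STEAP4, PSCA, TMEFF2, SLC45A3, SPON2 and MSMB, which are used as prostate-restricted surface or secreted markers and, in part, as therapy targets, and the kallikreins were left out. They were chosen by name, and all 9 were found among the 58735 genes of the deposited tables. C4-2B, labelled as a human prostate cell line, is a long established line of castration resistant prostate cancer, and 3 libraries of it were compared with 3 libraries of RC4-2B. RC4-2B is 1 subclone of C4-2B, obtained over 4 months of repeated exposure to the taxane cabazitaxel (CBZ) at concentrations that rose from 0.1 to 20 nM, so that selection by the drug and the choice of 1 subclone cannot be told apart. No drug is named in the labels for the cultures that gave the RNA, both lines were grown for 72 h with 10% fetal bovine serum (FBS), and the study's methods also name 10% charcoal-stripped serum, so the serum of these cultures is not certain. The labels call the 3 libraries of each line biological replicates.

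Prostate epithelium makes a set of proteins that few other tissues make in quantity, some of them held on the cell surface and some released into the seminal fluid. FOLH1 encodes prostate-specific membrane antigen (PSMA), a surface carboxypeptidase that cleaves glutamate from folates and from a neuropeptide, and the target of PSMA imaging and radioligand therapy. The STEAP proteins are membrane proteins with a heme group, and STEAP2 and STEAP4 reduce iron and copper. STEAP1 has no reductase domain of its own and is a target of antibody and T-cell therapies. PSCA is a small antigen of the LY6 family held on the membrane by a lipid anchor, TMEFF2 is a transmembrane protein with follistatin-like and EGF-like domains, and SLC45A3 (prostein) is a member of a sugar transporter family. SPON2 (spondin 2) is a secreted extracellular matrix protein, and MSMB (beta-microseminoprotein) is one of the abundant proteins of the seminal fluid.

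Levels are given as deposited FPKM, reads scaled by gene length and by library size, when genes are set against each other. Changes between the cell lines were fitted on the deposited read counts with the quasi-likelihood test of edgeR and are log2 fold changes of RC4-2B against C4-2B, so that a positive value is a higher level in RC4-2B. Adjusted p-values are Benjamini-Hochberg values over all 15054 genes tested, with a threshold of 0.05. In these bulk samples a change in the number of cells that express a gene and a change in RNA per cell cannot be told apart.

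Of the 9 antigens, SPON2 fell and TMEFF2 rose in RC4-2B, and the other 6 that could be tested did not pass the threshold. SPON2 RNA was 10.6-fold lower in the CBZ-resistant subclone (log2 fold change -3.41, standard error 0.33, 95% confidence interval -4.17 to -2.65, edgeR adjusted p = 0.00277). TMEFF2 RNA was 2.78-fold higher (log2 fold change 1.47, standard error 0.14, 95% confidence interval 1.15 to 1.79, edgeR adjusted p = 0.00252). FOLH1, STEAP1 and STEAP2, which encode targets on the cell surface, were among the most abundant antigens of both lines. STEAP4 was at or near 0 in all 6 libraries and was not tested. The 2 members that changed, of 8 tested, stand beside 1.98% of all genes tested that passed the same threshold. Of the 8, 1 was called higher and 1 lower in RC4-2B, beside 1.08% and 0.903% of all genes tested in those directions. The median log2 fold change of the 8 tested members was -0.13, against 0.01 over all genes tested.

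**Figure D1:**
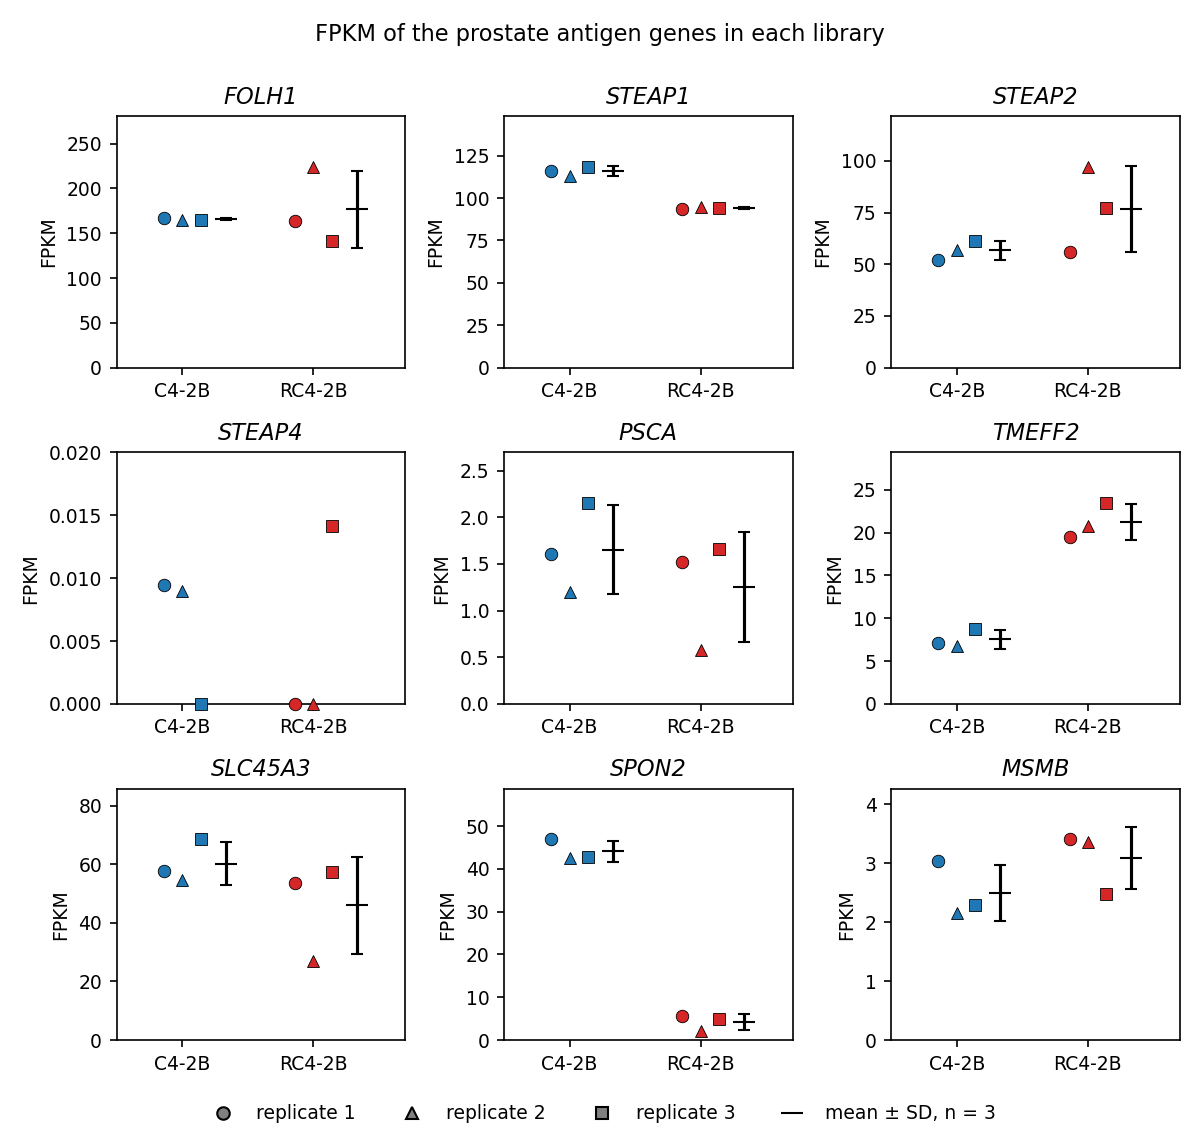
FPKM of the 9 antigen genes in each of the 3 C4-2B (blue) and 3 RC4-2B (red) libraries, with the mean and SD of the 3 libraries drawn beside the points except for STEAP4, which is at 3 counts or fewer in every library. The C4-2B and RC4-2B points are apart for SPON2, TMEFF2 and STEAP1 and overlap for the others, and RC4-2B replicate 2 is the highest red point for FOLH1 and STEAP2 and the lowest for PSCA, SLC45A3 and SPON2.

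The 6 libraries held 15707134 to 18052517 counts on genes, and 3 counts corresponded to 0.170 to 0.188 CPM (counts scaled to library size). One library stood apart. Log2 differences between libraries were taken over the 9974 tested genes with a mean log2 CPM above 3. The SD of the log2 difference per gene was 0.61 and 0.53 between RC4-2B replicate 2 and RC4-2B replicates 1 and 3. It was 0.22 between replicates 1 and 3, and the differences of replicate 2 followed the GC content of the transcripts. ABCB1, the drug efflux pump studied in this series, had 10742 to 15948 counts in RC4-2B and 0 or 1 in C4-2B. The luminal markers KRT8 (43.4 to 48.0 FPKM in C4-2B and 39.7 to 48.3 FPKM in RC4-2B) and KRT18 were abundant in both lines, and KLK3, the gene of prostate-specific antigen, fell (log2 fold change -4.33, edgeR adjusted p = 0.000154). Of the 8 luminal markers KLK3 and TMPRSS2 passed the threshold, both lower in RC4-2B, and the summed FPKM of the list was 497 to 517 in C4-2B and 322 to 383 in RC4-2B. Without KLK3 the other 7 summed to 308 to 320 FPKM in C4-2B and 311 to 376 FPKM in RC4-2B. This sum holds moves in both directions. CDH1 was higher in RC4-2B (log2 fold change 0.56, edgeR adjusted p = 0.0769) and KLK2 lower (log2 fold change -0.84, edgeR adjusted p = 0.131), and neither passed. Of the 8 luminal markers, 3 had a positive and 5 a negative log2 fold change. TMPRSS2 (log2 fold change -1.08, edgeR adjusted p = 0.0190) lost its call without any one of the C4-2B libraries or without RC4-2B replicate 3, with edgeR adjusted p-values of 0.0538 to 0.119. Several markers of other cells were at 0 in every library (KRT5 and TP63 of basal cells, COL1A2, DCN and LUM of fibroblasts and PECAM1 of endothelium), and the leukocyte markers PTPRC and CD3E were at 3 counts or fewer. Others were detected, with 355 to 585 counts of COL1A1 and 37 to 52 of PDGFRB from the fibroblast list, 260 to 554 of DST from the basal list, 62 to 143 of VWF from the endothelial list and at most 5 of CD68 from the immune list. Only 1 of the 5 basal, 2 of the 5 neuroendocrine, 2 of the 5 fibroblast and 1 of the 3 endothelial markers had enough counts to be tested, and none of these passed, with VWF nearest (log2 fold change -0.84, edgeR adjusted p = 0.0645). The highest summed FPKM of any of these lists in any library was 3.74, for the fibroblast list, against a highest value of 2.58 for it in C4-2B.

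FOLH1 lies on the minus strand of chromosome 11 and has a close copy, FOLH1B, on the same chromosome, and STEAP1 shares sequence, with a close copy of its exon 4, with STEAP1B on the short arm of chromosome 7. Short reads from such copies can be assigned to either gene, and how the authors' counting treated reads that map to several genes is not given in the sources used here. Of all 50-base windows in the annotated transcripts (GENCODE 44, GRCh38), 20.8% of those of FOLH1 and 22.5% of those of STEAP1 occur also in another gene. For the other members the share was 13.0% in PSCA, where the windows are shared with the overlapping gene JRK, 6.45% in STEAP4, 1.69% in STEAP2, 0.477% in SPON2 and 0% in TMEFF2, SLC45A3 and MSMB. The longest shared coding exon of at most 200 bases is shown for both pairs, to show how few bases tell the copies apart. Capitals mark the bases that differ. FOLH1 exon 3 spans chr11:49200255-49200441 on the minus strand (187 bases, 3 differences), and its match in FOLH1B spans chr11:89645003-89645189 on the plus strand. STEAP1 exon 4 spans chr7:90161914-90162078 on the plus strand (165 bases, 1 difference), and its match in STEAP1B spans chr7:22492565-22492729 on the minus strand.
FOLH1 exon 3: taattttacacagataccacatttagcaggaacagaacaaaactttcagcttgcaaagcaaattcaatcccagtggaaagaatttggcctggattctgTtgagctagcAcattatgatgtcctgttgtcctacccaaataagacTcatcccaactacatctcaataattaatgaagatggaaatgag
FOLH1B: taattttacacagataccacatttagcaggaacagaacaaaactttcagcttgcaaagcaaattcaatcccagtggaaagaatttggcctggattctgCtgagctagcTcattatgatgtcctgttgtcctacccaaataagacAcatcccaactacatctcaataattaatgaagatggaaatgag
STEAP1 exon 4: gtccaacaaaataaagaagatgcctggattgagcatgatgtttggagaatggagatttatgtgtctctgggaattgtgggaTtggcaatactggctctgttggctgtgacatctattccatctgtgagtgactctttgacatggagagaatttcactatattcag
STEAP1B: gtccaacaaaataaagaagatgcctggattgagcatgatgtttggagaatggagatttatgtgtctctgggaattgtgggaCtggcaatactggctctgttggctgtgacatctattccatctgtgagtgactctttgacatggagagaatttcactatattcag

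Only wholly coding exons of at most 200 bases were aligned, so shared sequence in other exons of FOLH1 or STEAP1 is not covered. Over the 14 such exons of FOLH1 that aligned along their whole length with FOLH1B, 19 of 1490 bases differed (98.7% identity). The sequences shared made up 47.1% of the 50-base windows of FOLH1B, and 5.21% of those of STEAP1B.

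FOLH1 (ENSG00000086205, chr11:49146635-49208670, minus strand, GRCh38 as in the files) was the most abundant antigen in both lines. It had 11959, 12530 and 12276 counts in C4-2B replicates 1 to 3, which is 167, 165 and 165 FPKM, and 11182, 16092 and 10197 counts in RC4-2B, which is 164, 224 and 142 FPKM. The C4-2B libraries lay close together, and the RC4-2B libraries fell on both sides of them. The mean was 166 ± 1.09 FPKM (SD, n = 3) in C4-2B and 177 ± 42.9 FPKM (SD, n = 3) in RC4-2B. The log2 fold change was 0.06 (standard error 0.15, 95% confidence interval -0.28 to 0.41, edgeR adjusted p = 0.817), and it was -0.12 without RC4-2B replicate 2 and -0.10 with a correction for GC content. Its sign thus depended on that library and on the correction, and the interval of the difference spans 0. In C4-2B 98.8% of the tested genes had a lower mean FPKM than FOLH1, and in RC4-2B 99.0%.

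FOLH1B, the copy of FOLH1, rose in RC4-2B with far lower values. Its FPKM was 0.685, 1.11 and 1.11 in C4-2B against 3.21, 3.23 and 2.43 in RC4-2B, and the groups did not overlap (log2 fold change 1.58, standard error 0.24, edgeR adjusted p = 0.0203). FOLH1B counts were 0.382% ± 0.0992 (SD, n = 3) of the FOLH1 counts in C4-2B and 1.11% ± 0.170 in RC4-2B (exact two-sided permutation p = 0.1, the smallest that 3 against 3 libraries allow). Since 47.1% of its windows are shared with FOLH1, how many of these reads came from FOLH1 was not tested. The call was lost when any C4-2B library or RC4-2B replicate 3 was left out, with edgeR adjusted p-values of 0.0538 to 0.104 and log2 fold changes of 1.38 to 1.69. Of the other 5 relatives of FOLH1 in the list none passed. The peptidase NAALAD2 had 0.738 ± 0.148 FPKM in C4-2B and 1.44 ± 0.451 FPKM in RC4-2B (SD, n = 3, edgeR adjusted p = 0.0966), and TFRC, the transferrin receptor, 92.2 ± 4.29 and 118 ± 21.8 FPKM (edgeR adjusted p = 0.199). NAALADL2 (log2 fold change -0.01, edgeR adjusted p = 0.981) and TFR2 (log2 fold change -0.23, edgeR adjusted p = 0.525) did not pass either, and NAALADL1, at 6 counts or fewer, was not tested. These 5 were named after their values were seen. NAALAD2 did pass with DESeq2, with no filter beyond 1 count, with the GC correction and without RC4-2B replicate 2. These settings called 887, 1250, 1147 and 1925 genes in all, against 298.

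The STEAP genes among the antigens lie on the long arm of chromosome 7, STEAP1 and STEAP2 side by side, and none of them passed the threshold. STEAP1 (ENSG00000164647, chr7:90154375-90164829, plus strand) had 3537, 3640 and 3752 counts in C4-2B, or 116, 113 and 119 FPKM, and 2710, 2886 and 2877 counts in RC4-2B, or 93.3, 94.7 and 94.0 FPKM. All 3 RC4-2B libraries were below all 3 C4-2B libraries, with a narrow spread in each line. The mean FPKM was 116 ± 2.78 in C4-2B and 94.0 ± 0.726 in RC4-2B (SD, n = 3), and the log2 fold change was -0.33 (standard error 0.09, 95% confidence interval -0.54 to -0.11). Its unadjusted p in edgeR was 0.00712 and its adjusted p 0.111, so it did not pass the threshold. It passed without RC4-2B replicate 2 (log2 fold change -0.31, edgeR adjusted p = 0.0142) and with the GC correction (log2 fold change -0.49, edgeR adjusted p = 0.0236), settings in which 12.5% and 7.62% of all genes tested passed. STEAP1B, which shares sequence with STEAP1, had 9 to 17 counts in C4-2B and 19 to 31 in RC4-2B. An antisense gene that overlaps STEAP1 and STEAP2, STEAP2-AS1, had 3 to 8 counts in any library.

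STEAP2 (ENSG00000157214, chr7:90167590-90238137, plus strand) had 8516, 9866 and 10385 counts in C4-2B, or 52.2, 57.1 and 61.2 FPKM, and 8690, 15892 and 12694 counts in RC4-2B, or 55.8, 97.3 and 77.4 FPKM. RC4-2B replicates 2 and 3 were above all C4-2B libraries, and RC4-2B replicate 1 was within their range. The log2 fold change was 0.40 (standard error 0.18, 95% confidence interval 0.00 to 0.81, edgeR adjusted p = 0.231). It was 0.22 without RC4-2B replicate 2 (edgeR adjusted p = 0.206) and 0.58 without RC4-2B replicate 1 (edgeR adjusted p = 0.0545). The ratio of STEAP2 to STEAP1 within a library, both in FPKM, was 0.449, 0.505 and 0.516 in C4-2B against 0.598, 1.03 and 0.823 in RC4-2B. The ratio was thus higher in every RC4-2B library than in any C4-2B library (mean 0.490 ± 0.0361 against 0.816 ± 0.215, SD, n = 3, exact two-sided permutation p = 0.1).

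STEAP4 (ENSG00000127954, chr7:88270892-88306891, minus strand) had 2, 2 and 0 counts in C4-2B against 0, 0 and 3 in RC4-2B. It was at or under 3 counts in each library, so that no fold is given. Its midpoint is 0.68 Mb from that of ABCB1, while the midpoints of STEAP1 and STEAP2 are 2.55 and 2.59 Mb away. STEAP3, the remaining metalloreductase of the family, had 9.23 ± 0.587 FPKM in C4-2B and 8.33 ± 1.33 FPKM in RC4-2B (SD, n = 3, edgeR adjusted p = 0.491), and was named after its values were seen.

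TMEFF2 (ENSG00000144339, chr2:191949043-192195709, minus strand) had 878, 884 and 1134 counts in C4-2B against 2306, 2579 and 2933 in RC4-2B. That is 7.07, 6.73 and 8.78 FPKM in the C4-2B libraries and 19.4, 20.7 and 23.5 FPKM in the RC4-2B libraries, and the lowest RC4-2B library was above the highest C4-2B library. The mean rose from 7.52 ± 1.10 to 21.2 ± 2.06 FPKM (SD, n = 3). TMEFF2 passed the threshold in each of the 19 alternative settings, with log2 fold changes of 1.30 to 1.59. Among the tested genes, 64.7% had a lower mean FPKM than TMEFF2 in C4-2B and 86.0% in RC4-2B. Of the genes called higher in RC4-2B, TMEFF2 ranked 61 of 162 by the size of the log2 fold change. An antisense gene that overlaps it, AC098617.1, had 0, 4 and 0 counts in C4-2B against 10, 14 and 2 in RC4-2B, and whether the counting used strand is not given in the sources used here. None of the 50-base windows of TMEFF2 occurred in another gene, on either strand. TMEFF1, the other gene of its family, was at 0 counts in all libraries.

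SPON2 (ENSG00000159674, chr4:1166932-1208962, minus strand) had 5293, 5067 and 5020 counts in C4-2B against 605, 239 and 547 in RC4-2B. That is 47.0, 42.5 and 42.9 FPKM in the C4-2B libraries and 5.63, 2.12 and 4.83 FPKM in the RC4-2B libraries, and the groups were far apart. The mean fell from 44.1 ± 2.48 to 4.19 ± 1.84 FPKM (SD, n = 3). RC4-2B replicate 2 was the lowest library. Without it the log2 fold change was -3.08 (edgeR adjusted p = 2.5e-11), and with the GC correction it was -3.03 (edgeR adjusted p = 3.38e-07). In C4-2B 93.5% of the tested genes had a lower mean FPKM than SPON2, and in RC4-2B 50.3%. By the size of the log2 fold change it ranked 27 of the 136 genes called lower in RC4-2B. SPON2 passed the threshold in each of the 19 alternative settings, with log2 fold changes of -3.69 to -2.93. SPON1, the related spondin, had at most 5 counts in any library and was not tested.

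AC092535.4, an antisense gene that overlaps SPON2, had 111, 117 and 117 counts in C4-2B against 69, 18 and 83 in RC4-2B. Its counts were lower in each RC4-2B library than in any C4-2B library, though it did not pass the threshold (log2 fold change -0.97, standard error 0.45, edgeR adjusted p = 0.248). Relative to SPON2 its counts were 2.25% ± 0.129 in C4-2B and 11.4% ± 3.82 in RC4-2B (SD, n = 3, exact two-sided permutation p = 0.1). Where their transcripts overlap, reads of the pair cannot be told apart if the counting did not use strand. Only 0.477% of the 50-base windows of SPON2 occurred in another gene, on either strand. AC092535.4 was not among the genes that shared most of these windows.

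MSMB, the other secreted antigen (ENSG00000263639, chr10:46033307-46046269, minus strand), was low in both lines. It had 28, 21 and 22 counts in C4-2B against 30, 31 and 23 in RC4-2B, or 3.04, 2.15 and 2.30 FPKM and 3.41, 3.36 and 2.48 FPKM. The groups overlapped, and the log2 fold change was 0.28 (standard error 0.29, 95% confidence interval -0.38 to 0.94, edgeR adjusted p = 0.566). At 21 to 31 counts a library the estimate was imprecise, and changes within this interval remain compatible with the counts. The related gene MSMP was at 0 counts.

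SLC45A3 (ENSG00000158715, chr1:205657851-205680459, minus strand) had 3993, 3998 and 4949 counts in C4-2B, or 57.6, 54.5 and 68.6 FPKM, and 3552, 1875 and 4004 counts in RC4-2B, or 53.7, 27.0 and 57.4 FPKM. RC4-2B replicates 1 and 3 were close to the C4-2B libraries, and RC4-2B replicate 2 alone was far below them. The log2 fold change was -0.40 (standard error 0.26, 95% confidence interval -1.01 to 0.20, edgeR adjusted p = 0.375), and with single libraries left out it ran from -0.60 to -0.12, the latter without RC4-2B replicate 2. Its relatives SLC45A1 and SLC45A4 were tested and did not pass the threshold, and SLC45A2, at 4 counts or fewer, was not tested. SLC45A1 had 63, 49 and 52 counts in C4-2B against 93, 49 and 97 in RC4-2B (log2 fold change 0.59, edgeR adjusted p = 0.291). It did pass without RC4-2B replicate 2 and with the GC correction, settings in which 12.5% and 7.62% of all genes tested passed.

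PSCA (ENSG00000167653, chr8:142670308-142682724, plus strand) had 53, 42 and 74 counts in C4-2B against 48, 19 and 55 in RC4-2B, or 1.60, 1.20 and 2.16 FPKM and 1.52, 0.575 and 1.66 FPKM. The groups overlapped, with RC4-2B replicate 2 lowest (log2 fold change -0.42, standard error 0.41, 95% confidence interval -1.34 to 0.51, edgeR adjusted p = 0.539). With single libraries left out the log2 fold change ran from -0.68 to -0.06, the latter without RC4-2B replicate 2. JRK overlaps PSCA on the opposite strand and had 582 to 837 counts, against 19 to 74 for PSCA. Reads of these genes, too, cannot be told apart where they overlap if the counting did not use strand. Of the LY6-type relatives of PSCA none passed the threshold. LY6D, LY6K and LY6H were at 1 count or fewer in every library. LY6E was the most abundant with 45.3 ± 4.00 FPKM in C4-2B and 29.5 ± 9.93 FPKM in RC4-2B (SD, n = 3, edgeR adjusted p = 0.199), named after its values were seen. LY6E did pass with no filter beyond 1 count and without RC4-2B replicate 2, and LYPD6, another relative, without that library. These settings called 1250 and 1925 genes in all, against 298.

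**Figure D2:**
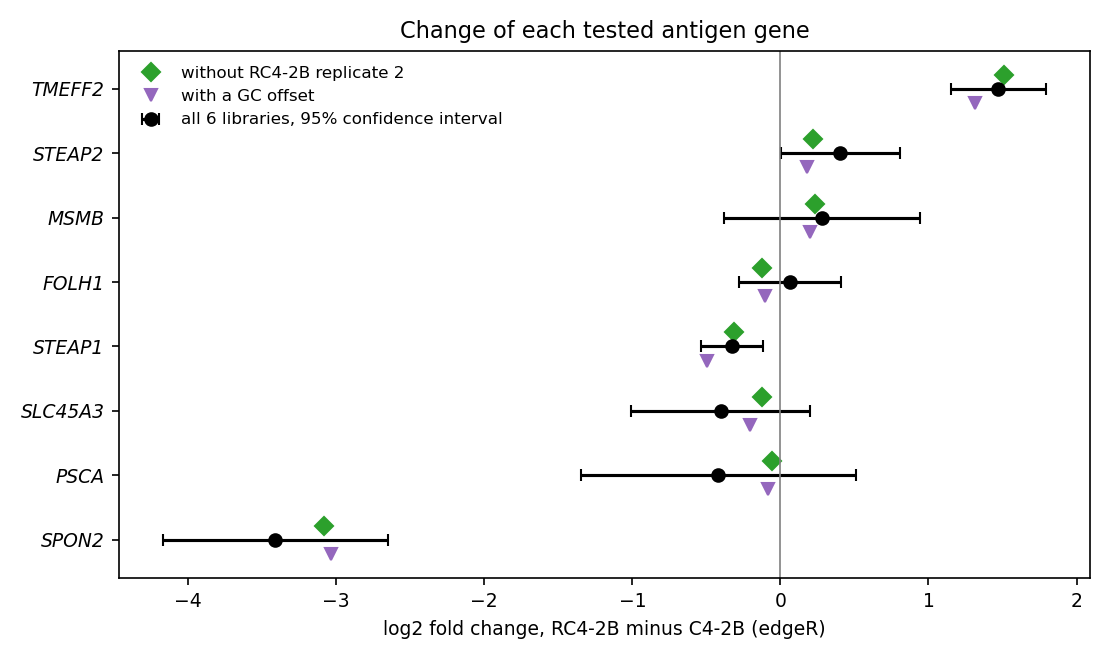
Log2 fold change of RC4-2B against C4-2B for the 8 tested antigen genes, with black points and 95% confidence intervals from edgeR on all 6 libraries, green diamonds without RC4-2B replicate 2 and purple triangles with a correction for GC content. TMEFF2 and SPON2 stay far from 0 in each, FOLH1 changes its sign, and SLC45A3 and PSCA move toward 0.

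Between the cell lines the order of the antigens changed in the middle of the list. In C4-2B it was FOLH1, STEAP1, SLC45A3, STEAP2, SPON2, TMEFF2, MSMB, PSCA and STEAP4 by mean FPKM. The ranges over libraries overlapped between SLC45A3 and STEAP2 and between MSMB and PSCA, and those neighbors cannot be ordered. In RC4-2B the order was FOLH1, STEAP1, STEAP2, SLC45A3, TMEFF2, SPON2, MSMB, PSCA and STEAP4, and ranges overlapped between STEAP1 and STEAP2, STEAP2 and SLC45A3, and SPON2 and MSMB. TMEFF2 and SPON2 exchanged places, with SPON2 at 44.1 and TMEFF2 at 7.52 FPKM in C4-2B and at 4.19 and 21.2 FPKM in RC4-2B.

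Summed over the 9 genes, FPKM was 443 to 469 in C4-2B and 396 to 470 in RC4-2B, ranges that overlapped (n = 3 in each line, exact two-sided permutation p = 0.4). FOLH1 and STEAP1 together made up most of the sum in every library. The share of FOLH1 was 36.5% ± 1.19 in C4-2B and 41.4% ± 6.29 in RC4-2B (SD, n = 3), and the ranges overlapped. The share of STEAP1 was 25.5% ± 0.235 and 22.3% ± 1.90, and that of STEAP2 12.5% ± 0.823 and 18.0% ± 3.47. SPON2 made up 9.72% ± 0.643 of the sum in C4-2B and 1.02% ± 0.508 in RC4-2B, and TMEFF2 1.65% ± 0.191 and 5.05% ± 0.720 (exact two-sided permutation p = 0.1 for each of SPON2, TMEFF2, STEAP1 and STEAP2). Shares of 1 sum depend on each other, so a fall of SPON2 raises the shares of the other genes. STEAP2 itself overlapped between the lines in CPM (exact two-sided permutation p = 0.3).

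In TMM-scaled CPM, 3 of the 8 tested members had groups that did not overlap, SPON2, TMEFF2 and STEAP1, while 34.1% of all genes tested had such groups. With the exact two-sided permutation test over libraries each of these 3 had p = 0.1, the smallest that 3 against 3 libraries allow. The others had exact permutation p-values of 0.2 for SLC45A3 and MSMB, 0.3 for STEAP2, 0.5 for PSCA and 0.9 for FOLH1.

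RC4-2B replicate 2 departed from replicates 1 and 3 in a way that ran with GC content, taken from the longest transcript in GENCODE 44. Compared with the mean of the other RC4-2B libraries on the log2 CPM scale, the antigens with the highest GC content were lower in it, SLC45A3 (59.0% GC) by a difference of -1.10, PSCA (63.2% GC) by -1.43 and SPON2 (64.7% GC) by -1.35. STEAP2 (36.6% GC) and FOLH1 (41.3% GC) differed by 0.51 and 0.50, and MSMB (46.8% GC) by 0.14. STEAP1 and TMEFF2 (31.9% GC), also low in GC, differed by only -0.04 and -0.10. The same difference was taken over the tested genes with a mean log2 CPM above 3, a cut that PSCA and MSMB do not reach. Its median was 0.38 in the 1928 such genes of at most 40% GC and -0.84 in the 1340 above 60% GC. The part of GC content in the differences of single antigens was not tested. SPON2 and TMEFF2 passed the threshold with and without this library.

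**Figure D3:**
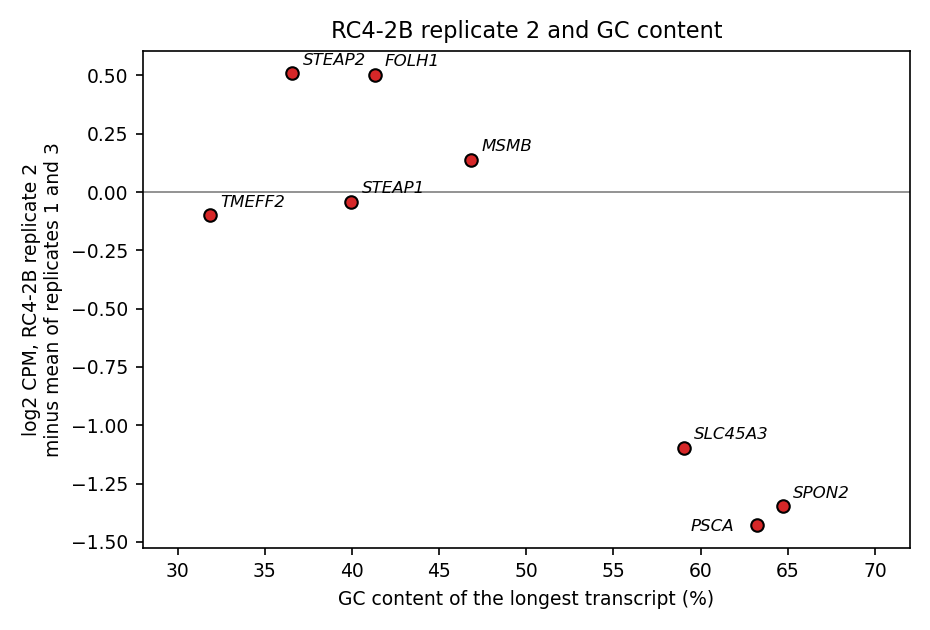
Log2 CPM of RC4-2B replicate 2 minus the mean of RC4-2B replicates 1 and 3 (vertical axis) against the GC content of the longest transcript in percent (horizontal axis), for the 8 tested antigen genes. SLC45A3, PSCA and SPON2, at 59.0% to 64.7% GC, lie at -1.10 to -1.43, and the genes below 50% GC lie between -0.10 and 0.51.

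Another 3 lists were set beside the antigens. Relatives of the antigens by gene family numbered 24, of which 15 were tested and FOLH1B alone passed, higher in RC4-2B, and their median log2 fold change was 0.24. Other prostate-associated genes numbered 17, with 10 tested and a median of -0.14, and GDF15 alone passed. GDF15, a secreted stress-responsive cytokine, fell, with 41.3 to 49.3 FPKM in the C4-2B libraries and 9.15 to 18.5 FPKM in those of RC4-2B (n = 3, log2 fold change -1.65, standard error 0.25, edgeR adjusted p = 0.0178). The seminal proteins SEMG1 and SEMG2 and the neuropeptide NPY were at 0 counts in all libraries, and AZGP1 (42.8 ± 1.42 and 40.1 ± 6.24 FPKM, edgeR adjusted p = 0.625) and the prostatic acid phosphatase gene ACPP (2.19 ± 0.130 and 3.18 ± 0.166 FPKM, edgeR adjusted p = 0.101) did not pass; these were named after their values were seen. GDF15 did not pass without any one of the C4-2B libraries or without RC4-2B replicate 3 (edgeR adjusted p = 0.0695 to 0.103, log2 fold change -1.69 to -1.57). ACPP did pass without RC4-2B replicate 2, a setting in which 12.5% of all genes tested passed.

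Surface targets of cancer therapy that are not members numbered 26, with 21 tested and a median log2 fold change of -0.09, and 2 passed. PTK7, a receptor-like pseudokinase, fell from 5.58 ± 0.198 to 2.89 ± 0.637 FPKM (SD, n = 3, log2 fold change -0.97, standard error 0.18, edgeR adjusted p = 0.0360). CDH3, the gene of P-cadherin, rose from 1.76 ± 0.0646 to 3.27 ± 0.308 FPKM (SD, n = 3, log2 fold change 0.87, standard error 0.14, edgeR adjusted p = 0.0203). Both calls were lost without any one of the C4-2B libraries or without RC4-2B replicate 3, with edgeR adjusted p-values of 0.0938 to 0.186 for PTK7 and 0.0937 to 0.149 for CDH3. With limma on log2(FPKM + 1) both also missed the threshold, at adjusted p-values of 0.0696 for PTK7 and 0.0510 for CDH3. EPCAM, the epithelial adhesion molecule, had 35.4 to 37.8 FPKM in C4-2B and 37.7 to 50.3 FPKM in RC4-2B and did not pass (log2 fold change 0.25, edgeR adjusted p = 0.260), and CD44, CEACAM5, F3, IL13RA2 and MSLN were at or under 3 counts in every library.

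**Figure D4:**
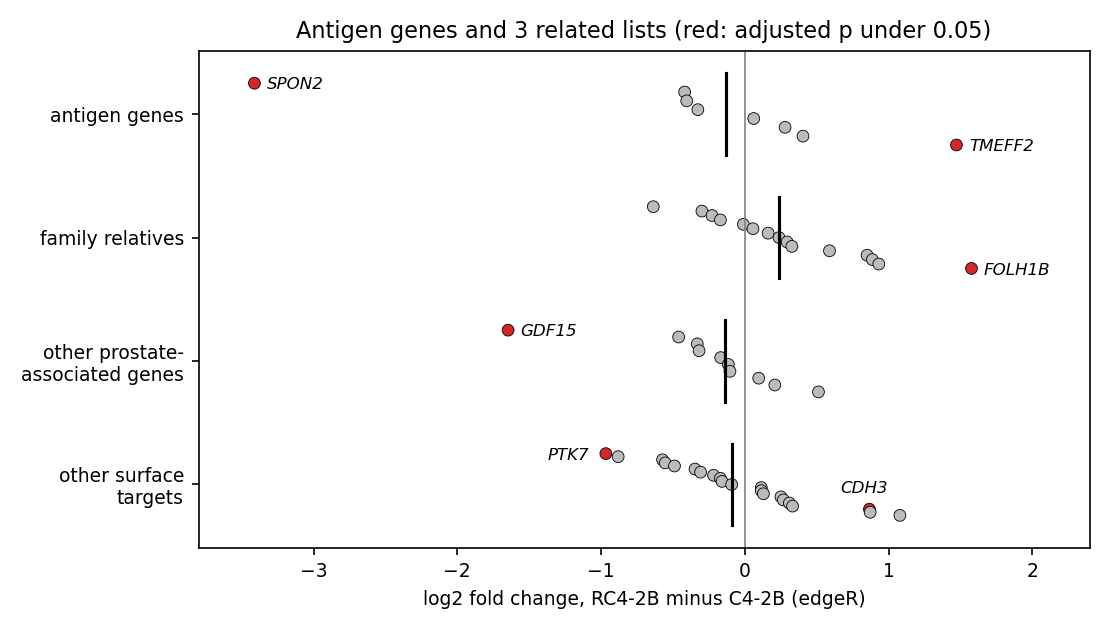
Log2 fold change of RC4-2B against C4-2B for the tested genes of the antigen list and of the lists of family relatives, other prostate-associated genes and other surface targets, each point 1 gene, red where the edgeR adjusted p is under 0.05, with a black bar at the median of each list. The medians lie between -0.14 and 0.24, and SPON2 and TMEFF2 are farther from 0 than the other antigens.

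The genes most like SPON2 and TMEFF2 were sought among 12575 tested genes whose average log2 CPM was 1 or more, by the root-mean-square difference of the 6 log2 ratios to the C4-2B mean. For TMEFF2 the nearest were SERPINI1 (0.13), LGALS3BP (0.19) and NPNT (0.21), on the log2 scale, and their log2 fold changes were 1.67, 1.31 and 1.37. For SPON2 they were C2orf72 (0.37), KCNJ3 (0.49) and UNC5A (0.57), with log2 fold changes of -3.35, -4.08 and -4.54. Each of these is a likeness over 6 libraries of 2 cell lines and is given as a description.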

How the data were processed

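Total RNA of 3 C4-2B and 3 RC4-2B libraries was sequenced. Per the labels the reads were mapped to GRCh38 with STAR, whose version, like the counting program, its use of strand, its treatment of multi-mapping reads and its annotation release, is not given in the sources used here. The authors deposited whole-number read counts per gene for 58735 genes, not normalized, and FPKM values, which equal these counts over gene length and over 1 total per library. The total was recovered from both deposited tables, and counts on genes were 87.9% to 96.3% of it.

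The test was run in R 4.3.3 by edgeR 4.0.16 (TMM scaling, filterByExpr with a minimum count of 10, glmQLFit and glmQLFTest, cell line as the only term, 15054 genes, Benjamini-Hochberg adjustment, threshold 0.05). The study's methods name DESeq2 (1.42.0 here), which was run as an alternative. The others were RLE and upper-quartile scaling, no filter beyond 1 count, genes with a mean count of 10 or more, replicate number as a block, a GC offset (lowess of each library's deviations against GC content, span 0.2, GC known for 99.6% of tested genes) with and without the block, each library left out, a prior count of 2, and limma 3.58.1 on log2(FPKM + 1) and log2(FPKM + 0.1) (genes that reach an FPKM of 1 in 3 or more libraries), and on log2(FPKM + 1) for all genes with an FPKM above 0. Fold changes on the log2(FPKM + pseudocount) scale understate those of low genes. The prior count of 2 alters the fold changes but not the test, so no call could change with it. The GC offset also removes any mean GC trend between the lines. A GC offset without RC4-2B replicate 2 was chosen after seeing the data. On simulated counts of this comparison (14848 genes), 200 of 200 genes changed by 2 on the log2 scale were recovered. Of 14648 unchanged genes 6 were called. The changed genes were drawn from those with a mean CPM above 2, a level that MSMB does not reach. All genes were given the same spread between replicates. Recovery of smaller changes, or of changes in lower genes, was not tested. Whether these values hold for the deposited counts, in which RC4-2B replicate 2 stood apart, was not tested either.

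Pairs of libraries of 1 line differed by more than sampling noise (chi-square per gene 3.38 to 65.4), so none was counted as a copy. Single values were compared by exact permutation of libraries. Depth limits each value by counting error, and 3 counts were taken as the floor. The antigens, the other lists, and the rule for named genes (all antigens, genes of the other lists that passed, the nearest 3 genes in pattern to each antigen that passed, ABCB1 and KLK3) were chosen with earlier results of these data known. Gene identifiers and positions are those of the files, and 99.1% of the identifiers were found in GENCODE 44. One marker of the cell type lists is not reported here.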

Additional observations from a re-analysis of the deposited data

How the results depend on the processing

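Of the antigens, SPON2 and TMEFF2 kept their direction and their call in all 19 alternatives, with edgeR, DESeq2 or limma adjusted p-values of at most 0.0361 and 0.0328. STEAP2, SLC45A3 and MSMB kept their direction and were called in none. Among the alternatives, the prior count of 2 leaves the test as it is and could not change a call. FOLH1 turned to -0.10 with the GC offset, -0.11 with the GC offset and the block, and -0.18 with the GC offset when RC4-2B replicate 2 was omitted, and it ran from -0.12 (without RC4-2B replicate 2) to 0.19 with single libraries left out. PSCA turned to 0.076 with the GC offset when RC4-2B replicate 2 was omitted. STEAP1 was called at -0.49 with the GC offset, -0.50 with the GC offset and the block and -0.38 with the GC offset when RC4-2B replicate 2 was omitted, and ran from -0.34 to -0.31 with single libraries left out, called only without RC4-2B replicate 2. The cause was not tested.

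Over all genes, 298 were called, and 887 with DESeq2, 1250 with no filter beyond 1 count, 129 with the replicate block, 1147 with the GC offset, 1206 with the GC offset and the block, 2050 with the GC offset when RC4-2B replicate 2 was omitted, 104 and 86 with limma on log2(FPKM + 1) and log2(FPKM + 0.1), 36 with limma on all genes with an FPKM above 0, and 44 to 1925 with single libraries left out (44, 57 and 56 without C4-2B replicates 1, 2 and 3, and 474, 1925 and 78 without RC4-2B replicates 1, 2 and 3). Among family relatives the count of 1 became 2 with DESeq2, 3 with no filter beyond 1 count, 0 with the replicate block, 3 with the GC offset, 2 with the GC offset and the block, 5 with the GC offset when RC4-2B replicate 2 was omitted, 0 with limma on all genes with an FPKM above 0, and 0 to 5 with single libraries left out. Among other prostate-associated genes the count of 1 became 2 with the GC offset, with and without the block, 3 with the GC offset when RC4-2B replicate 2 was omitted, 0 with limma on all genes with an FPKM above 0, and 0 to 3 with single libraries left out. Among other surface targets the count of 2 became 0 with the replicate block and with each limma fit, and 0 to 3 with single libraries left out. FOLH1B, PTK7 and CDH3 had edgeR adjusted p-values of 0.0539, 0.0512 and 0.0568 with the block. The replicate numbers did not pair the libraries (correlations of same-numbered deviations 0.38, 0.21 and -0.09, and not every library correlated best with its own number), and the block left the count of called antigens at 2.

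Depth limits PSCA and MSMB, at 19 to 74 counts a library, and leaves STEAP4 unmeasured.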
